A study of Mus musculus with 7 samples.

Results

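Keratins are the intermediate filament proteins of epithelia and hair, and the keratin-associated proteins (Krtap) are the matrix proteins in which hair keratin filaments are embedded. The 110 genes described here are the protein-coding genes of GENCODE M21 (mm10) whose symbol is Krt followed by a number or begins with Krtap, out of 21938 protein-coding genes on the nuclear chromosomes. They comprised 28 type I keratins, 25 type II keratins and 57 keratin-associated proteins. They were examined in bulk ATAC-seq, in which the Tn5 transposase inserts adapters into accessible DNA, of HPC7, a mouse hematopoietic progenitor line grown in stem cell factor. The libraries were HPC7-1, HPC7-2 and HPC7-4 to HPC7-8, grown as separate cultures, and the labels give these 7 as replicates of 1 condition, although the peak names begin with VD in 3 of them and with EtOH in 4, which the labels do not explain. The deposited lists held between 84593 (HPC7-6) and 132852 (HPC7-1) open chromatin regions (OCRs), and the background of a library lay between 4.44 and 20.4 reads.

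A keratin filament is built from pairs of a type I and a type II chain, and each epithelium uses its own pairs. Krt8 and Krt18 pair in simple epithelia, Krt5 and Krt14 in the basal layer of the epidermis, and Krt1 and Krt10 in its suprabasal layers. Type I genes lie together on mouse chromosome 11 and type II genes on chromosome 15, where Krt18 is the type I gene at the end of the type II cluster, and the Krtap genes lie between the type I keratins and in groups of their own. Blood cells are not known for keratin filaments, and their main cytoplasmic intermediate filament protein is vimentin.

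The question was how much of these gene families was open in HPC7. A gene was counted as open when any base of an OCR lay within 1 kb of the 5′ end of its GENCODE record. None of the 110 keratin genes was open in all 7 libraries, where 51.6% of all protein-coding genes were. In at least 1 library 4 of 110 were open (3.64%), against 57.1% of all protein-coding genes. The number of open keratin genes was lowest in HPC7-6, with 0, and highest in HPC7-8, with 4, while HPC7-5 had 2 and each of the other libraries 3. This gave a mean share of 2.34% ± 1.16 (SD, n = 7), and the highest share of any library, 3.64%, lay far below the lowest share of all protein-coding genes, 52.8%, whose mean was 54.0% ± 1.14 (SD, n = 7). The mean keratin share was 5.71% with a window of 3 kb and 1.43% with equally long lists from all libraries. With the 3 kb window 11 of the 110 genes were open in at least 1 library, against 13989 of all 21938 protein-coding genes. None of the 28 type I keratins, 2 of the 25 type II keratins and 2 of the 57 Krtap genes were open in any library.

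The cell type label was checked at marker genes. Of 6 hematopoietic progenitor markers 5 were open at the gene start in all 7 libraries. Fold enrichment is the ratio of reads at the OCR summit to the background of the library, with 1 added to each. It averaged 108 ± 25.7 (SD, n = 7) at Kit, the receptor of stem cell factor, and 91.3 ± 20.1 at Spi1, which encodes the transcription factor PU.1. The mean was 88.3 ± 12.8 at Tal1, a transcription factor of blood progenitors, and 80.8 ± 17.0 at Cd34, a surface marker of progenitors. The start of the sixth, Gata2, held no OCR, but at its other protein-coding transcript starts the mean was 46.7 ± 11.9 in 7 of 7 libraries. None of 5 epithelial markers (Cdh1, Epcam, Cldn7, Esrp1, Trp63) was open at the gene start in any library. At any protein-coding transcript start, Esrp1 was open in 3 libraries and Cldn7 in 1.

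**Figure D1:**
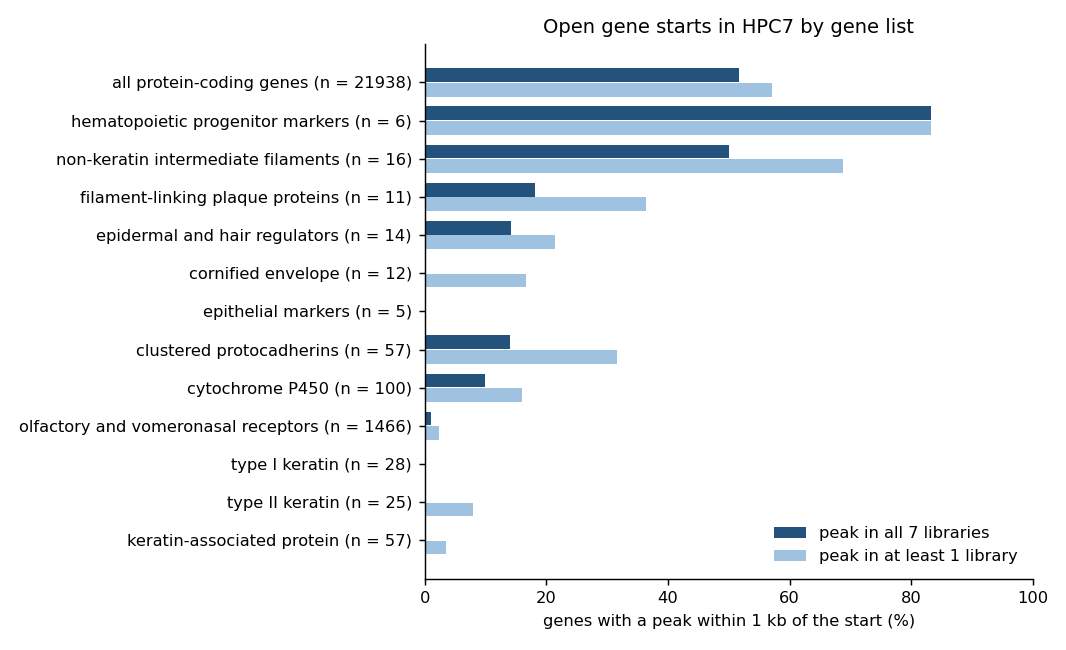
Share of genes (x axis, %) with an OCR within 1 kb of the start in all 7 libraries (dark bars) and in at least 1 library (light bars), for all protein-coding genes and each gene list (y axis). The 3 keratin families have no dark bar, and their light bars reach at most 8.0%.

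Other large gene families in clusters gave a scale for these counts. Of 1466 olfactory and vomeronasal receptor genes, which serve the sense of smell, 16 (1.09%) were open in all libraries and 34 (2.32%) in at least 1. Of 100 cytochrome P450 genes, enzymes of drug and steroid metabolism, 10 were open in all libraries and 16 in at least 1. Of 57 clustered protocadherins, adhesion molecules of neurons, 8 were open in all libraries and 18 in at least 1. The keratin shares of 0 and 3.64% were thus nearest to those of the chemosensory receptors, and no test was made of these differences.

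The exceptions were Krt7, Krt86, Krtap13-1 and Krtap5-4. Krt7 is a type II keratin of simple and glandular epithelia, and Krt86 is a type II hair keratin. The sequences around the OCRs of both, 300 bases of the plus strand of GRCm38 (mm10) around the middle summit, are shown because these were the most often open keratin starts. Krt7 is from chr15:101410884-101411183 and Krt86 from chr15:101473030-101473329. The window labelled Krt86 start is that of its OCR, and it ends upstream of the start itself, at 101473478. Capitals mark matches, on either strand, to 7 motifs. These were the TATA box as TATAAA, the GC box as GGGCGG, a word bound by ETS factors as CCGGAA, one of RUNX factors as TGTGGT, one of GATA factors as AGATAA, one of AP-1 as TGANTCA, and the core consensus of CTCF.
Krt7 start: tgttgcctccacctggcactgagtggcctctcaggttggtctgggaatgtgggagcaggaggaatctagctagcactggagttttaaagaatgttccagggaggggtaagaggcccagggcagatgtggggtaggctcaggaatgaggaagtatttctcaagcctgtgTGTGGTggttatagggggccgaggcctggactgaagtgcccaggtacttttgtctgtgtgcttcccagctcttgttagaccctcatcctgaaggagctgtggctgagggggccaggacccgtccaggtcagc
Krt86 start: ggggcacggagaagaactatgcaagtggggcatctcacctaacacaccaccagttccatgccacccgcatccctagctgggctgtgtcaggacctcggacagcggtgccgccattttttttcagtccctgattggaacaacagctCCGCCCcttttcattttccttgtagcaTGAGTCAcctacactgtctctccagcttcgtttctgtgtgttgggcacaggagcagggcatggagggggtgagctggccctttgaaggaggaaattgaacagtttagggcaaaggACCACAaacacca
The Krt7 window held 2 CpG and 1 TGTGGT. The Krt86 window held 7 CpG and 1 match each to the GC box, the RUNX word and the AP-1 word. This RUNX word lay at the edge of the window and ran past the end of the OCR at 101473319. The 300 bases around the median summit, 101473171, held no RUNX word. A match is a description of the sequence and not a measured site.

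At Krt7 (ENSMUSG00000023039.17, start at 101411043 of chromosome 15, plus strand) HPC7-6 had no OCR. In the other libraries, in the order of their numbers (1, 2, 4, 5, 7 and 8), the fold enrichment was 4.35, 3.49, 3.195, 3.31, 4.95 and 4.66. These are low values, since the lowest fold enrichment listed in a library lay between 1.68 and 2.44. The mean of the 6 libraries was 3.99 ± 0.755 (SD, n = 6), and within its library the OCR ranked between percentile 4.81 and percentile 44.3, with a median of 22.4. The reads at the summit numbered between 18 and 92. The summits lay between 57 bp upstream and 37 bp downstream of the start, and the transcript Gm671, antisense to Krt7, also starts within 3 kb of it.

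At this upstream start GENCODE has noncoding transcripts of Krt7, from 101411043, and a protein-coding one from 101411103. RefSeq places the start of Krt7 at 101412403, which is 1360 bp downstream of the 5′ end of the GENCODE record. Another protein-coding GENCODE transcript of Krt7 starts close to the RefSeq start. No library had an OCR within 1 kb of the RefSeq start. Its RefSeq promoter (GRCm38.p6, chr15:101412153-101412452, plus strand, 250 bases before to 50 after the start) is shown because it differs in composition from the sequence under the OCR. It had a GC content of 66.3% and 21 CpG, with GC boxes in capitals.
Krt7 RefSeq promoter: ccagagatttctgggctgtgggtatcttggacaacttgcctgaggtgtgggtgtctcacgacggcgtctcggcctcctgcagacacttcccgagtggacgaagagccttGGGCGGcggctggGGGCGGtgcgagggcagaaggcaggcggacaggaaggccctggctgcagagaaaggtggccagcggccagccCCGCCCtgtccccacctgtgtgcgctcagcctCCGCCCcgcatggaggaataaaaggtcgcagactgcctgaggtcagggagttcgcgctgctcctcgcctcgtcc
The weak OCR of Krt7 was therefore at the upstream start and not at the GC-rich one.

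Krt86 (ENSMUSG00000067614.5, start at 101473478 of chromosome 15, plus strand) had the highest mean fold enrichment among the exceptions. In the same order of libraries it was 5.80, 4.78, 5.44, 6.61, 3.64 and 6.70, and HPC7-6 again had no OCR. The mean was 5.50 ± 1.16 (SD, n = 6), with a median percentile of 43.2 and between 24 and 123 reads at the summit. All summits lay upstream, between 378 and 269 bp from the start, and the OCR ended 159 bp before it. Of the 32-base words of the 1 kb around the start of Krt86 73.4% were found once in the genome, and of those within the OCR itself 100%.

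Krtap13-1 (ENSMUSG00000056350.7, start at 88728862 of chromosome 16, plus strand), a hair matrix gene, was open in 3 libraries, with a fold enrichment of 3.67 in HPC7-4, 3.20 in HPC7-7 and 2.91 in HPC7-8. The OCR lay inside the gene, 79 bp past the start. Krtap5-4 (ENSMUSG00000045236.5, start at 142303549 of chromosome 7, plus strand), of the cysteine-rich Krtap5 group, was open in 3 libraries, with 3.09 in HPC7-1, 3.31 in HPC7-2 and 2.77 in HPC7-8. Gm5054 also starts within 3 kb of it. HPC7-8 was the library in which both were open. The OCR of Krtap13-1 ranked between percentile 3.74 and percentile 20.9 of its library, with a median of 12.1, and that of Krtap5-4 between percentile 1.98 and percentile 26.9, with a median of 7.38.

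**Figure D2:**
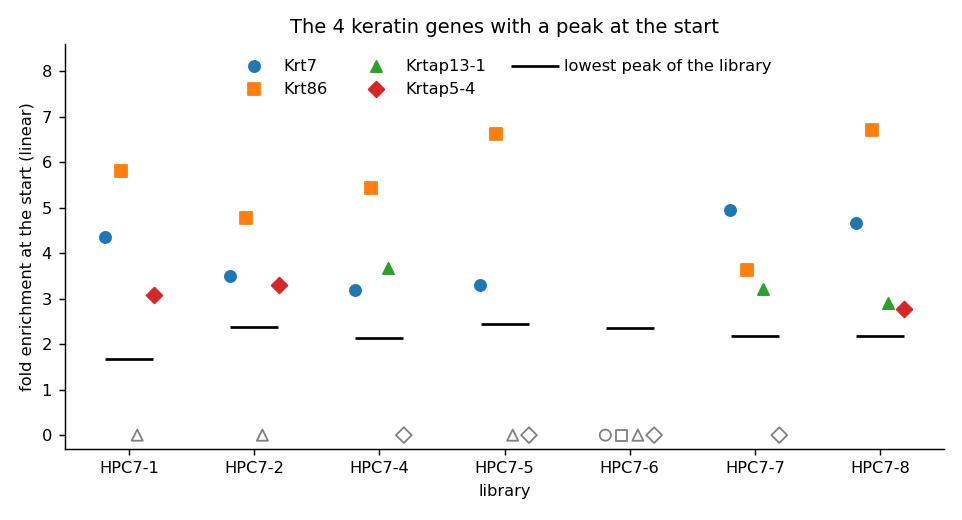
Fold enrichment (y axis, linear) of the OCR within 1 kb of the start of Krt7, Krt86, Krtap13-1 and Krtap5-4 in each library (x axis). Filled symbols are OCRs, open grey symbols at 0 mark no OCR, and black bars give the lowest fold enrichment listed in the library. No filled symbol exceeds 6.70, and HPC7-6 has none.

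HPC7-6 had the shortest list, and it decided 1 count. Without it, Krt7 and Krt86 were open in all of the other 6 libraries, and the number of keratin genes open in every library rose from 0 to 2, while leaving out any other library left it at 0. The part of the list length in this was not tested.

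Of the keratins set for comparison in pairs, Krt7 alone had an OCR at the start in any library. No OCR was found at the starts of Krt8, Krt18 and Krt19 of simple epithelia, Krt5 and Krt14 of the basal epidermis, Krt1 and Krt10 of the suprabasal epidermis, Krt6a and Krt16, which are induced in wounded skin, or Krt80. Of the 10 pairs set for a comparison none had an OCR at both starts in all libraries, so that no difference within a pair could be tested. The distance from the start to the nearest OCR found in all libraries was 13589 bp for Krt8, 9647 bp for Krt18, 20382 bp for Krt19, 8422 bp for Krt5, 37796 bp for Krt14 and 77651 bp for Krt1. The RefSeq promoters of Krt8 (chr15:102004293-102004592, minus strand) and Krt18 (chr15:102027966-102028265, plus strand) are printed as the pair that occurs in the widest range of epithelia.
Krt8 RefSeq promoter: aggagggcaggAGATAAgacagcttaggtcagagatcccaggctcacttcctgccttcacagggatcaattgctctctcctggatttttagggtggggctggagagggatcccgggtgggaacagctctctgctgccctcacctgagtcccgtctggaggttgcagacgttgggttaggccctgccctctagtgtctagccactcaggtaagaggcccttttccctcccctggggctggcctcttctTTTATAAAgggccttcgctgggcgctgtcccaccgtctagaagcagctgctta
Krt18 RefSeq promoter: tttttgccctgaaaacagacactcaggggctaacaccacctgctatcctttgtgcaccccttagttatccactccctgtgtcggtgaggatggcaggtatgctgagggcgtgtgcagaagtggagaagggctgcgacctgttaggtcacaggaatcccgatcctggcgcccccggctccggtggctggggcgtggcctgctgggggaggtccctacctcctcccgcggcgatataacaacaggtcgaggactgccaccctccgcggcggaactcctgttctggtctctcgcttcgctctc
The Krt8 promoter held 6 CpG and matches to TATAAA (overlapping on both strands) and AGATAA. That of Krt18 held 17 CpG and none of the 7 motifs. The GC content was 58.0% and 61.3%, and both were without an OCR.

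Over all 110 genes the median distance from the start to the nearest OCR of any library was 20.4 kb, against 0 kb over all protein-coding genes. To the nearest OCR found in all 7 libraries it was 46.3 kb, against 0.303 kb. By family the latter was 30.5 kb for type I keratins, 25.2 kb for type II keratins and 114 kb for Krtap genes. Within 10 kb of such an OCR lay 15 of the 110 starts (13.6%), against 65.9% of all starts. Krt10, at 2.54 kb, and Krtap5-1, at 2.84 kb, were the nearest.

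Of the 110 genes 100 lay in the 3 keratin clusters of chromosomes 11, 15 and 16, each running from the first to the last of a series of keratin genes in which neighbours were no more than 500 kb apart. The cluster of chromosome 11 (chr11:99232761-100269871, Krt222 to Krt42) held 50, that of chromosome 15 (chr15:101347444-102032027, Krt80 to Krt18) held 26, and that of chromosome 16 (chr16:88610705-89571183, Krtap24-1 to Krtap11-1) held 24. The other 10, on chromosomes 1, 7 and 10, include smaller Krtap groups that were not treated as clusters. The clusters also held 35 other protein-coding genes, all with Gm or Rik symbols. OCRs per library inside the clusters numbered 45, 35, 38, 32, 28, 38 and 49 in the order of the library numbers (1, 2, 4, 5, 6, 7 and 8), with a mean of 37.9 ± 7.24 (SD, n = 7). The libraries with the longest lists, HPC7-1 and HPC7-8, had the most, and HPC7-6 with the shortest list had the fewest.

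Divided by the OCRs per Mb of the whole genome in the same library, the density in the clusters was 0.362 ± 0.0258 (SD, n = 7), and it lay between 0.331 and 0.401 in every library. With 50 kb added on either side of the clusters, this ratio was 0.556 and the mean number of OCRs per library 64.6. Without the added 50 kb the ratio was 0.346 ± 0.0319 on chromosome 11, 0.684 ± 0.0621 on chromosome 15 and 0.150 ± 0.0620 on chromosome 16. The ranges of the 3 clusters did not overlap, since the highest value was 0.219 on chromosome 16, the values of chromosome 11 lay between 0.279 and 0.376, and the lowest on chromosome 15 was 0.606. The stretches of equal length on either side of the clusters were rich in OCRs, with 140 ± 21.1 per Mb on chromosome 11, 147 ± 20.4 on chromosome 15 and 60.0 ± 10.3 on chromosome 16. The density inside divided by that of these flanks was 0.0954, 0.181 and 0.0969, respectively.

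Merged across libraries, the clusters held 55 OCRs, 19 on chromosome 11, 27 on chromosome 15 and 9 on chromosome 16. Of these 21 (38.2%) were found in all 7 libraries, against 46.2% of 144931 merged OCRs in the genome. In a single library were 9 of the 55, against 25994 of the 144931. With 50 kb added on either side of the clusters, 40 were found in all libraries. The 21 came to 7.83 per Mb, against 24.6 per Mb in the genome. Within a library, the OCRs of the clusters had a median percentile of fold enrichment of 41.3 ± 2.59 (SD, n = 7), and 18.1% ± 1.18 of them were among the top 25%. This share was 15.6% on chromosome 11, 25.7% on chromosome 15 and 0% on chromosome 16.

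**Figure D3:**
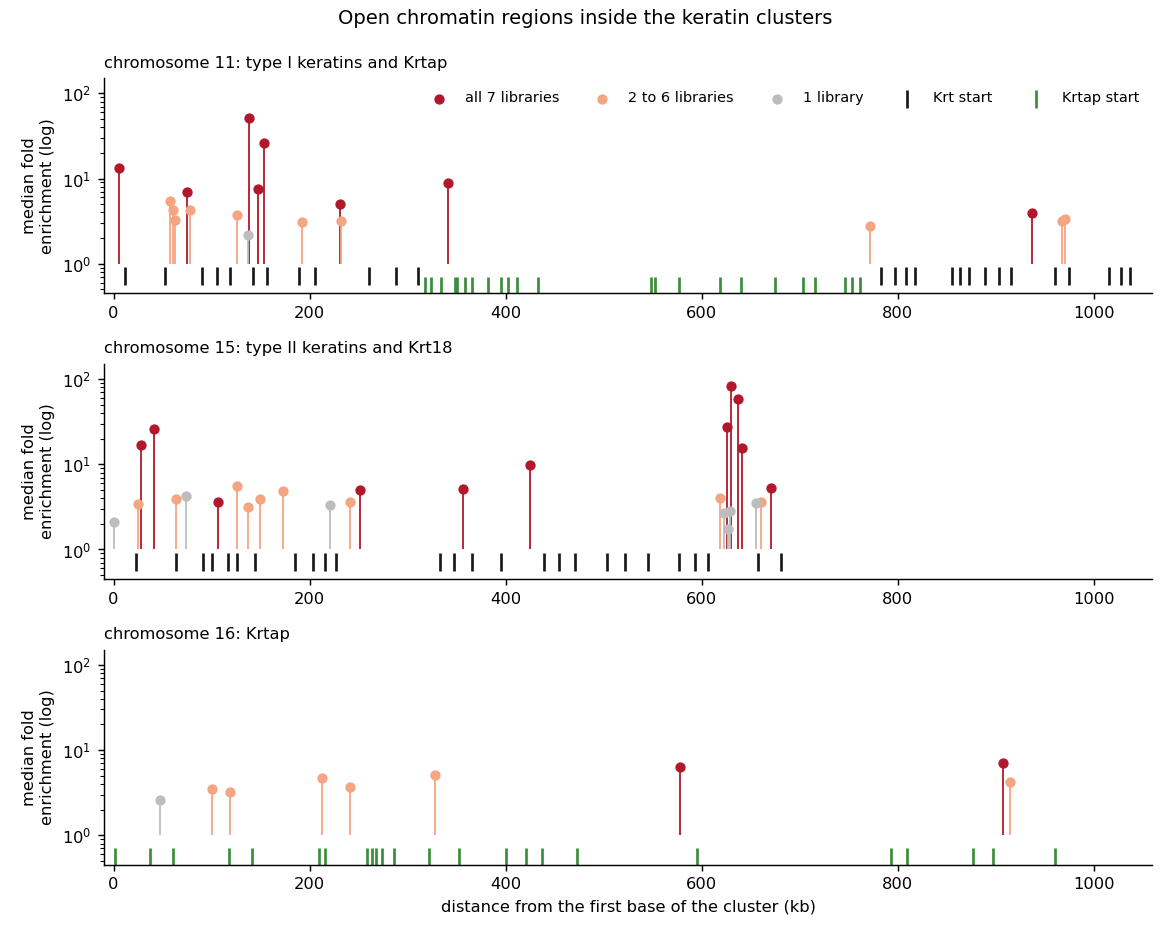
Merged OCRs along the 3 clusters, in kb from the first base of each cluster (x axis), with the median fold enrichment over the libraries that have the OCR (y axis, log scale), coloured by the number of libraries. Ticks below mark the starts of Krt genes (black) and Krtap genes (green). The strongest OCRs lie near the end of the chromosome 15 cluster and in the first part of the chromosome 11 cluster, and the 430 kb Krtap stretch of chromosome 11 holds none.

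The longest stretch without any OCR in any library was 430 kb on chromosome 11 and held 20 Krtap genes, from Krtap1-5 to Krtap17-1. The nearest OCR in all libraries to its left (chr11:99574080-99574569) had a mean fold enrichment of 9.47 ± 2.90 (SD, n = 7). On chromosome 15 the longest such stretch was 193 kb with 9 keratins from Krt72 to Krt78, and on chromosome 16 it was 329 kb with 5 Krtap genes. Only 2 OCRs of chromosome 16 were found in all libraries, with means of 6.86 ± 1.88 and 7.91 ± 2.68. Both lay upstream of a Krtap gene, by 17.05 kb from Krtap20-2 and by 9.53 kb from Krtap7-1.

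The strongest OCRs of the clusters lay away from the gene starts. The highest 2 of the 21 were on chromosome 15 between the GENCODE records of Krt78 and Krt8. The highest (chr15:101976660-101978810) had a fold enrichment of 94.8, 73.9, 83.4, 114, 59.6, 76.7 and 113, in the same order. It ranked between percentile 92.7 and percentile 96.5 of its library, with summits within 44 bp of each other. Its mean of 87.8 ± 20.3 (SD, n = 7) was of the size seen at Tal1. It lay 23.2 kb upstream of Krt78, the nearest GENCODE transcript start of any gene.

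The next (chr15:101983308-101985124) had 86.1, 58.4, 56.4, 100.2, 47.9, 51.5 and 75.3, with a mean of 68.0 ± 19.7 (SD, n = 7), and its summit was 20.1 kb downstream of the start of Krt8, while the nearest transcript start of any kind was that of the lincRNA Gm36026, 19.8 kb away. Both were highest in HPC7-5 and lowest in HPC7-6. With OCRs of mean 28.0 ± 7.16 (chr15:101973307-101974175) and 15.1 ± 3.41 (chr15:101987983-101988951), 4 of the 11 chromosome 15 OCRs in all libraries lay in the 42.4 kb between the records of Krt78 and Krt8, 6.20% of the cluster. GENCODE M21 has no gene within the stretch. RefSeq has a computed transcript model of Krt78 that extends over nearly all of it, and the summits of all 4 lay inside that model but in none of its exons, with the nearest RefSeq start between 8.25 and 19.1 kb away.

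The 300 bases around the middle summits of these highest 2 OCRs and of the OCR in Krt10, described below, are shown as plus strand sequence of GRCm38 because these are the strongest OCRs of the clusters and the strongest in an exon. They are from chr15:101977371-101977670, chr15:101984272-101984571 and chr11:99385912-99386211, in this order, with the same motifs in capitals.
OCR upstream of Krt78: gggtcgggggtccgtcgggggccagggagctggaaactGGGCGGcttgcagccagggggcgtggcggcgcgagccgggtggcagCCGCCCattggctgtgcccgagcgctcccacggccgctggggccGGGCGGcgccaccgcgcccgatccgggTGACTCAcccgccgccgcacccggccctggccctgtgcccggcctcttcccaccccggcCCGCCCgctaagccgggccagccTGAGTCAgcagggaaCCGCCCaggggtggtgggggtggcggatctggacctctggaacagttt
OCR downstream of Krt8: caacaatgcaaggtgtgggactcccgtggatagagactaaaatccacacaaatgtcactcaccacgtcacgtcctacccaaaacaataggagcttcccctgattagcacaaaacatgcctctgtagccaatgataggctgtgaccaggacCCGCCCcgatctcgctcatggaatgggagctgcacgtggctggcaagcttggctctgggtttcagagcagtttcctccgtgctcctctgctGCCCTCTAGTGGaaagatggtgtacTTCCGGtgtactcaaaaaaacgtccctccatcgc
OCR in Krt10: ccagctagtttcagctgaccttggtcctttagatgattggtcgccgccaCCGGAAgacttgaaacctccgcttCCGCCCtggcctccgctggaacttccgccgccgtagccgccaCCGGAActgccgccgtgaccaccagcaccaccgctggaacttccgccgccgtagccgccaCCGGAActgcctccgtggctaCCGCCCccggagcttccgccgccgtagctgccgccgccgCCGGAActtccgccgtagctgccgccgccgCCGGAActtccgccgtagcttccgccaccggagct
The OCR upstream of Krt78 had a GC content of 77.0%, 32 CpG, 5 GC boxes and 2 TGANTCA. The OCR downstream of Krt8 held the CTCF core consensus, 1 GC box and 1 CCGGAA. The OCR in Krt10 had 39 CpG, 2 GC boxes and 5 CCGGAA.

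Krt28 is a keratin of the inner root sheath of the hair follicle. The OCR in an intron of Krt28, 3.92 kb downstream of its start, had a fold enrichment of 77.7, 43.2, 52.2, 54.98, 41.0, 50.5 and 52.1, in the same order, with a mean of 53.1 ± 11.99 (SD, n = 7). It was 388 bp wide, with all 7 summits within 2 bp, where the summits of the other 9 of the 10 strongest OCRs ranged over 34 to 650 bp. HPC7-1, the library with the highest background, stood above the other 6.

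Krt10 pairs with Krt1 in the suprabasal epidermis. Its strong OCR (chr11:99385770-99386826) had a fold enrichment of 33.1, 28.7, 23.9, 26.3, 22.4, 20.5 and 31.9, in the same order, with a mean of 26.7 ± 4.77 (SD, n = 7). Its summit lay in an exon, 3.30 kb downstream of the gene start and 0.035 kb from the start of a short protein-coding GENCODE transcript at 99386097. RefSeq has no Krt10 start there. With any protein-coding transcript start in place of the gene record, Krt10 was therefore the 1 keratin gene of 110 open in all 7 libraries, against 54.3% of all protein-coding genes. The promoter at the gene start (RefSeq, chr11:99389315-99389614, minus strand), which held no OCR, is shown for comparison.
Krt10 RefSeq promoter: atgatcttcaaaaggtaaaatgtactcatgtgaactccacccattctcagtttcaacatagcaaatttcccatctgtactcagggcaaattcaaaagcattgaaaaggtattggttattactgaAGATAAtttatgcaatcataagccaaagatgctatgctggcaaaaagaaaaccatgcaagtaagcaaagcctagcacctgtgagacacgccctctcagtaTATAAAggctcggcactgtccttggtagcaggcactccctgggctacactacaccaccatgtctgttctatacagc
It had a GC content of 42.0%, 2 CpG, and matches to TATAAA and AGATAA. In the open exon the GC content was 69.3%.

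Krt222, a keratin-like gene at the edge of the chromosome 11 cluster, held an OCR in an exon (chr11:99238343-99238928) with a mean of 12.6 ± 3.53 (SD, n = 7), 0.195 kb from the start of a noncoding transcript of the gene and 5.41 kb from the gene start. Upstream of Krt80, at the edge of the chromosome 15 cluster, OCRs of mean 25.6 ± 7.10 (chr15:101386588-101388937) and 16.6 ± 3.85 (chr15:101374800-101376054) lay 18.1 and 4.96 kb from its start, within the antisense transcript Gm35853. The last of the 10 strongest (chr15:101772038-101773143), with a mean of 9.69 ± 1.71, lay 13.6 kb downstream of the start of Krt72. The remaining OCRs found in all libraries were weaker, and 12 of the 21 had a mean under 10. Of all 110 genes, Krt222, Krt28, Krt10 and Krt88 had an OCR in the gene body in all 7 libraries (4 of 110), against 65.3% of all protein-coding genes, and 13 had one in at least 1, against 73%. The median gene length was 2.35 kb for the 110 genes and 17.4 kb for all protein-coding genes, and the part of gene length in these shares was not tested.

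**Figure D4:**
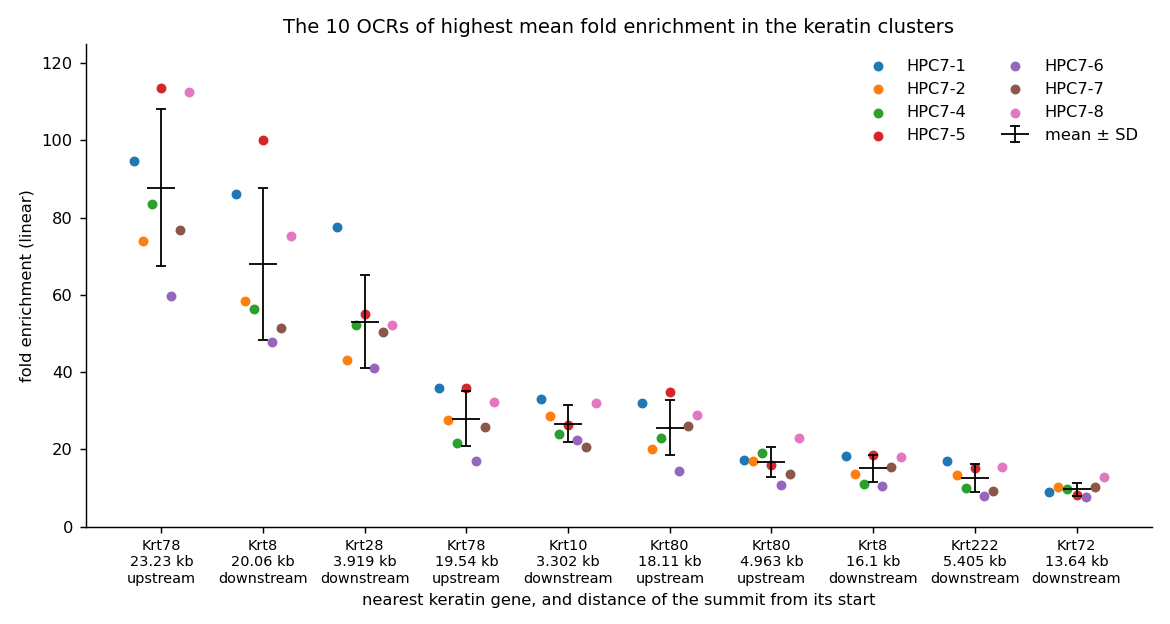
Fold enrichment (y axis, linear) of the 10 OCRs with the highest mean inside the clusters, named by the nearest keratin gene and the distance of the summit from its start (x axis). Points are libraries, and bars give the mean ± SD over 7 libraries. The first 2 have means of 87.8 and 68.0, and HPC7-6 is the lowest library in 13 of the 21 OCRs found in all libraries.

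The starts of the keratin genes shared features of sequence that the choice by name did not use. In the 1 kb centred on the start, the median ratio of observed to expected CpG was 0.237, against 0.553 over all protein-coding genes, and the highest was 0.584, at Krt87. The median was 0.310 for type I keratins, 0.303 for type II keratins and 0.166 for Krtap genes. None of the 110 reached 0.6, the class that held 10076 genes and in which 82.05% were open in all libraries.

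Openness was compared within classes of this ratio, which were added after the data had been seen. Under 0.2, 11.2% of 4992 genes were open in all libraries and 18.4% in at least 1, against 0 and 3 of 38 keratin genes. From 0.2 to 0.4, 25.2% of 3790 genes were open in all libraries and 35.9% in at least 1, against 0 and 1 of 58. From 0.4 to 0.6, the shares were 50.1% and 57.1% of 3080 genes, against 0 and 0 of 14. In each of these classes the keratin share was below that of all genes.

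**Figure D5:**
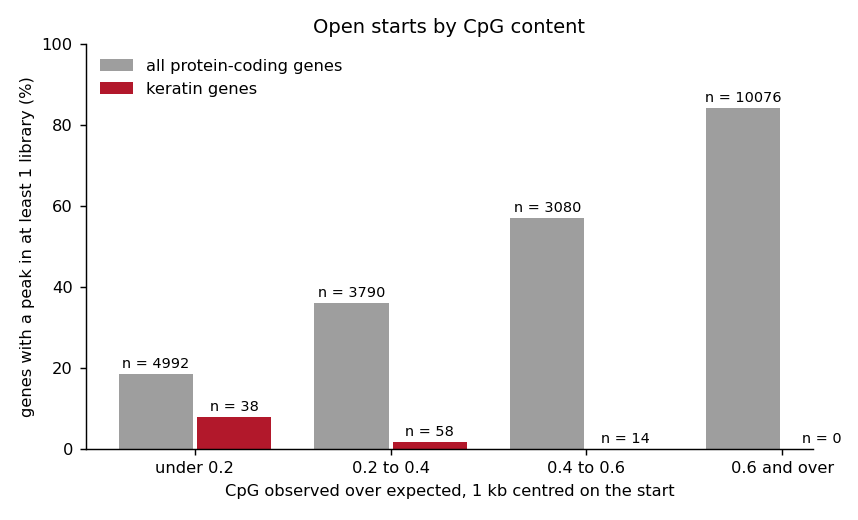
Share of genes with an OCR at the start in at least 1 library (y axis, %) by the ratio of observed to expected CpG around the start (x axis), for all protein-coding genes (grey) and keratin genes (red), with the number of genes above each bar. The red bars reach 7.895%, 1.72% and 0%, and no keratin gene falls in the last class.

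RefSeq promoters (GRCm38.p6), 250 bases before to 50 after the start, were matched by symbol for 87 of the 110 genes. TATAAA, on either strand, occurred in 70.1% of them and in 12.9% of all 16522 promoters. GGGCGG occurred in 2.30% against 48.0%, and CCGGAA in 1.15% against 19.6%. AGATAA occurred in 24.1% against 9.72%, TGANTCA in 12.6% against 7.10%, and TGTGGT in 18.4% against 14.8%. The core consensus of CTCF was in none of the 87 and in 0.563% of all. In the 300 bases around the summits of the 21 OCRs, it was found in 3 (14.3%), against 6.42% of 66979 OCRs found in all libraries, GGGCGG in 5 (23.8%) against 18.3%, and TGTGGT in 2 (9.52%) against 33.2%. CCGGAA was found in 14.3% against 8.75%, AGATAA in 14.3% against 19.4%, TGANTCA in 14.3% against 14.1%, and TATAAA in 4.76% against 11.2%. The median CpG ratio there was 0.329 in the clusters and 0.227 in the genome, with a median GC content of 53.0% and 50.0%. The share with a ratio of at least 0.6 went the other way, with 9.52% of the 21 against 14.8% of the 66979.

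Many keratin genes are close copies of each other, and how the aligner placed reads of copies is not given in the sources used here. Of the 32-base words in the 1 kb around a start, a median of 93.6% were found once in the genome for the 110 genes and 98.6% for every 20th protein-coding gene. The median was 95.9% for type I keratins, 98.2% for type II keratins and 88.1% for Krtap genes. At least 80% of the words were found once in 87 of the 110 genes (79.1%) and in 958 of 1097 genes (87.3%). Among the keratins of the pairs the share ranged from 66.0% at Krt16 and 66.6% at Krt6a to 100% at Krt80, none of which had an OCR at the start. The part of close copies in the missing OCRs was not tested.

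Genes that work with keratins were described from lists. Of 16 intermediate filament genes other than keratins, 8 (50.0%) were open in all libraries, near the 51.6% of all protein-coding genes, and 11 in at least 1 (68.8%, against 57.1%). The means were 161 ± 33.6 (SD, n = 7) at Lmna and 153 ± 27.8 at Lmnb1, which encode nuclear lamins, 156 ± 35.1 at Nefh, a neurofilament gene, and 104 ± 23.7 at Vim, which encodes vimentin. The lowest of the 8 was Nes, nestin, at 6.12 ± 2.04. Of 11 genes of the plaques that anchor filaments, 2 were open in all libraries, Jup (plakoglobin) at 144 ± 25.9 and Plec (plectin) at 30.6 ± 6.603 (119 ± 29.0 at any protein-coding transcript start), while Evpl was open in 2 libraries, Pkp1 in 1, and Dsp, the desmoplakin gene, in none. The means of Jup, Plec, Lmna, Lmnb1, Nefh and Vim were all above 6.70, the highest value in any library at the 5′ end of a keratin gene record, and that of Nes was not.

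Over all protein-coding genes, 51.6% were open in all libraries and 57.1% in at least 1. Of 12 genes of the cornified envelope, the cross-linked layer of dead skin cells, none was open in all libraries. Tgm1, a transglutaminase, was open in 5 and Lor, loricrin, in 1. Of 14 regulators of epidermis and hair, 2 were open in all libraries, Grhl1 at 99.4 ± 20.1 (SD, n = 7) and Grhl3 at 10.8 ± 3.10. Klf4 was open in 4 libraries. At any protein-coding transcript start, Tfap2a was open in all libraries too, at 21.4 ± 5.04. Trp63, which encodes the p63 regulator of stratified epithelia, was open in none.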

How the data were processed

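The deposited files were 1 list of OCRs per library. The authors trimmed reads, aligned them to mm10 with BWA and called OCRs per library with MACS2; versions and options are not given in the sources used here. The deposited fold enrichment is a ratio of reads at the summit to background, with 1 added to each. The deposited −log10 p and −log10 q values and summit offsets were used as given, and the deposited score was not used. A scaling between libraries is not described for these files. Fold enrichments were whole multiples of 1 step per library (tolerance 0.02), from which summit reads and background were derived. In the deposited lists 3 libraries (HPC7-1, 2 and 4) carry peak names starting with VD and the others EtOH; the labels give 1 condition, and these prefixes were not used as groups.

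Percentiles are ranks of fold enrichment within a library. OCRs were merged at 1 bp overlap. Genes came from GENCODE M21 and sequences from GRCm38. Genes were named by a rule: every open keratin gene, the members of 10 keratin pairs, the 10 strongest OCRs in all libraries, and of each context list the highest 4 with Jup, Vim, Lmnb1 and Plec, beside the cell type markers. Krt88, Krt87, Krtap5-1, Nes, Dsp and Tfap2a, and the genes that bound clusters and stretches or lie nearest to an OCR, were named after their values were seen. The keratin genes and lists were chosen with earlier results of these data known. No test was made over the keratin genes. Sequences are printed for a selection of OCRs only. Errors are the SD over 7 libraries, or for open keratin starts over the libraries with an OCR, and the deposited lists show read depth only through the background. Alternatives were other windows, starts, peak lists, cluster bounds and intensity, and each library left out in turn. Overlap and merging were tested on simulated intervals, with bedtools as the reference for merging. The software was matplotlib 3.10.9, numba 0.67.0, scipy 1.17.1, pandas 2.3.3, numpy 2.4.6 and Python 3.11.15.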

Additional observations from a re-analysis of the deposited data

Results flagged for a closer look

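Among 30 measures over the 7 libraries, 3 had a highest library that stood apart by Dixon's 95% criterion, where chance alone sets apart about 1 group in 20. In the OCR in the intron of Krt28, the gap of HPC7-1 (77.7) to the next library (54.98) was 0.619 of the range. In the OCR at chr11:99574080-99574569, 6.71 kb downstream of the start of Krtap1-5, the gap of HPC7-8 (15.4) to the next library (10.1) was 0.603 of the range. In the OCR at chr11:100169047-100169752, 20.7 kb upstream of Krt19, the gap of HPC7-8 (5.39) to the next library (4.18) was 0.583 of the range. HPC7-1 had the highest background and HPC7-8 the second longest list, and their part in these values was not tested.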

How the results depend on the processing

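With starts read within 3 kb, the mean share of open keratin genes was 5.71%. Of the 110 genes 2 (Krt10 and Krtap5-1) were open in all libraries, against 56.7% of all protein-coding genes. In at least 1 library 11 were open, against 13989 of all 21938 genes. With any protein-coding transcript start, 1 (Krt10) was open in all libraries. Leaving out 1 library gave between 0 and 2 keratin genes open in all others, with 2 (Krt7 and Krt86) only without HPC7-6, and between 21 and 26 cluster OCRs in all others (26 without HPC7-6). With equally long lists, the clusters held a mean of 30.3 OCRs per library at a median percentile of 35.7. With genes no more than 100 kb apart, the density ratio was 0.424. With 50 kb added on either side, OCRs per library rose to 64.6, those in all libraries to 40 and the density ratio to 0.556. With RefSeq transcript starts (129 transcripts of 109 genes, chosen after the data were seen), 0 keratin genes were open in all libraries and 3 in at least 1, without Krt7. No share over all protein-coding genes was taken at RefSeq starts. Windows of 500 bp, the summit in the window and a −log10 q of at least 5 gave 0 and 4 open keratin genes, with a mean share of 1.56% for the last, and equally long lists gave 0 and 3, with a mean share of 1.43%. Ranking by −log10 p gave the same percentile, 41.3, by construction, since p follows from the same summit reads and background. By peak-name prefix, chosen after the data were seen, the mean share was 2.73% (VD) and 2.05% (EtOH). No paired analysis was possible because the labels give 1 group. The alternatives for the keratin pairs gave no value, since no pair had an OCR at both starts. The wider windows and bounds take in more OCRs by construction. A start without an OCR was not detectable as open at this depth, at which the fewest reads at a listed summit lay between 12 and 35 per library.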
